A study of Saccharomyces cerevisiae with 41 samples.

Results

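Pre-40S particles caught through Nob1 were compared with particles caught through Rio1, both treated with 1M7, by the rate at which reverse transcriptase dropped off at each nucleotide of 18S. The members were fixed by their labels. They are 2 Nob1 samples, 3 Rio1 samples and the 3 untreated late control samples that serve both, 8 of the 41 samples of the series. All strains are Saccharomyces cerevisiae BY4741. The Nob1 strain carries nob1-TAP::K.I.URA3 and the Rio1 strain rio1-HTP::K.I.URA3, so the tag differs together with the protein and their parts in a difference cannot be told apart. Both are labelled as purified 20S pre-rRNA. The late controls are labelled as 18S rRNA, with 1 sample from the nob1-TAP::K.I.URA3 strain and 2 from fun12-TAP::K.I.HIS3, and none from the Rio1 strain. Cultures were grown in glucose medium or in galactose and raffinose medium, and neither the medium of each strain nor the dose and time of 1M7 treatment is stated in the sources used here. The deposited table holds 1 averaged column for each group. Replicate values and read depths did not come with it, so every difference below is between 2 means of unknown error and no test was made.

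Small ribosomal subunits of yeast reach the cytoplasm with 20S pre-rRNA, whose 3' extension is removed in the last step of maturation. Nob1 is the nuclease that makes this cut at the 3' end of 18S, and Rio1 is an atypical protein kinase that acts on late particles. Near that end lie h44, the long helix of the subunit interface with the decoding site, and h45, a short hairpin whose loop carries a pair of adenines dimethylated by Dim1. 1M7 acylates the ribose of flexible nucleotides, and the adduct stops reverse transcriptase at the nucleotide 3' of it. Positions below name the listed stop, counted from the 5' end of 18S, with U for the T of the table.

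Reactivity was the treated rate minus the late control rate, scaled by a divisor: after setting aside the top 2% of a column, the next 8% were averaged. The divisors were nearly equal, 0.0389 in Nob1 and 0.0392 in Rio1, and the control is the same for both, so a difference of 0.5 in reactivity stands for a difference of about 0.02 in treated rate. A nucleotide was called where Rio1 and Nob1 differed by 0.5 or more. The stretches that held the main differences are shown, read from the deposited table, 5' to 3'. In the first 4 lines capitals mark nucleotides called lower in Rio1, and in the last 4 those called higher.

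h45, 1769 to 1792: TTTCcgTAggTGAaCctgcggaag
head, 1241 to 1264: gagagctcTttCTTgATtttgtgg
expansion segment 6, 666 to 689: ttcgtgtaCTggattTccaacggg
h44, 1745 to 1768: gaggaactaaaaGtcgTaaCAagg
h44, 1745 to 1768: gaggaActaaAagTcgtaAcaaGG
5' domain into h18, 531 to 554: cttaacgaggaAcaattggaggGc
h18, 567 to 590: agcagccgcggTAAttccagctcc
h20 into expansion segment 6, 625 to 648: ctcgtagttgaACTttGGgcccgg

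Over nucleotides 2 to 1800 the Nob1 and Rio1 particles had much the same profile. Treated rates had r = 0.923 and reactivities r = 0.747 across 1799 nucleotides, which are not independent and share base composition, while the reactivities also share the control. The difference stayed under 0.1 at 867 nucleotides (48.2%), and its median was -0.01. A reactivity of 0.7 or more was reached at 143 nucleotides in Nob1 and 139 in Rio1, and 84 of these were common to both, 58.7% of the Nob1 set and 60.4% of the Rio1 set. Among nucleotides that were not called, A1766 next to the end of h44 had the highest reactivity shared by both columns, 3.88 in Nob1 and 3.70 in Rio1, and A182 gave 3.16 and 3.20. A266 (2.45 and 2.72), A181 (2.50 and 2.24) and A541 (2.00 and 2.33) followed. The highest reactivity of Nob1 lay at U1347 in the head (7.20, against 4.83 in Rio1), and that of Rio1 at G1768 (6.91, against 3.22 in Nob1). A907 in the platform, called higher in Rio1, was also among the 3 highest of Rio1 (4.93, against 3.83 in Nob1).

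**Figure D1:**
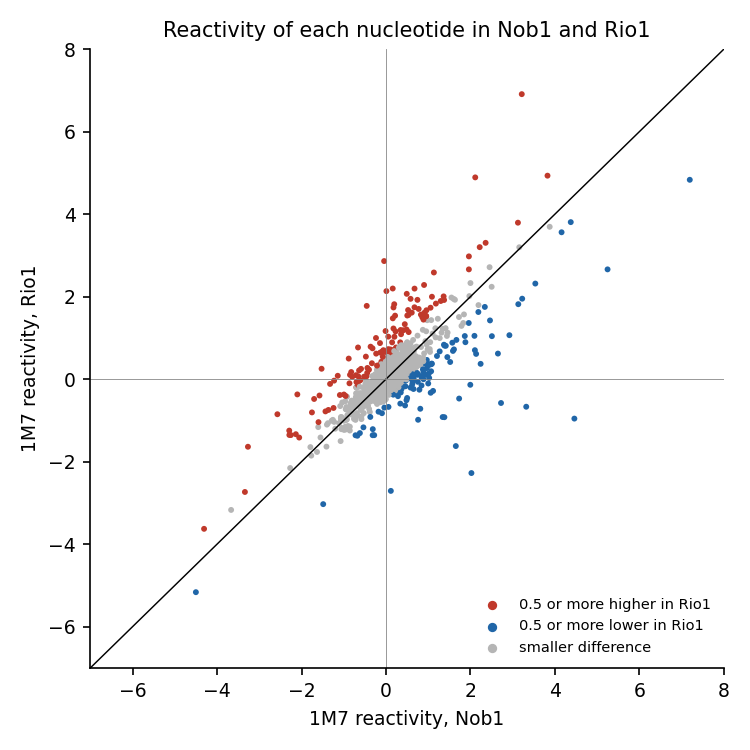
1M7 reactivity of 1799 nucleotides in Nob1 (horizontal axis) and Rio1 (vertical axis), 1 point a nucleotide, with the line of equality. Most points lie near the line (r = 0.747), 121 are called higher in Rio1 (red) and 108 lower (blue).

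Of 1799 nucleotides, 121 (6.73%) were called higher and 108 (6.00%) lower in Rio1. The treated rate itself moved in the called direction at all 121 and all 108. With a shared control and nearly equal divisors this follows from the calculation and is no separate support for the calls. Compared directly, among 926 nucleotides with a rate of 0.02 or more in the higher column, the treated rate was at least 2-fold higher in Rio1 at 61 (6.59%) and at least 2-fold lower at 47 (5.08%). Differences of 2 or more in reactivity were found at 6 nucleotides higher and 13 lower in Rio1, so the largest differences lay more often on the Nob1 side. Not all calls concern nucleotides that 1M7 modified above background. Both columns lay below the late control at 27 of the higher and 13 of the lower calls, and the column with more signal reached a reactivity of 0.3 at 80 and 89. Full changes of class were few. From below 0.3 in Nob1 to 0.7 or more in Rio1 went 25 nucleotides, and 31 went the other way, 8 of these in the segment of h44 and h45 and 5 in each of 2 others, the platform and the head from h28 to h34.

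**Figure D2:**
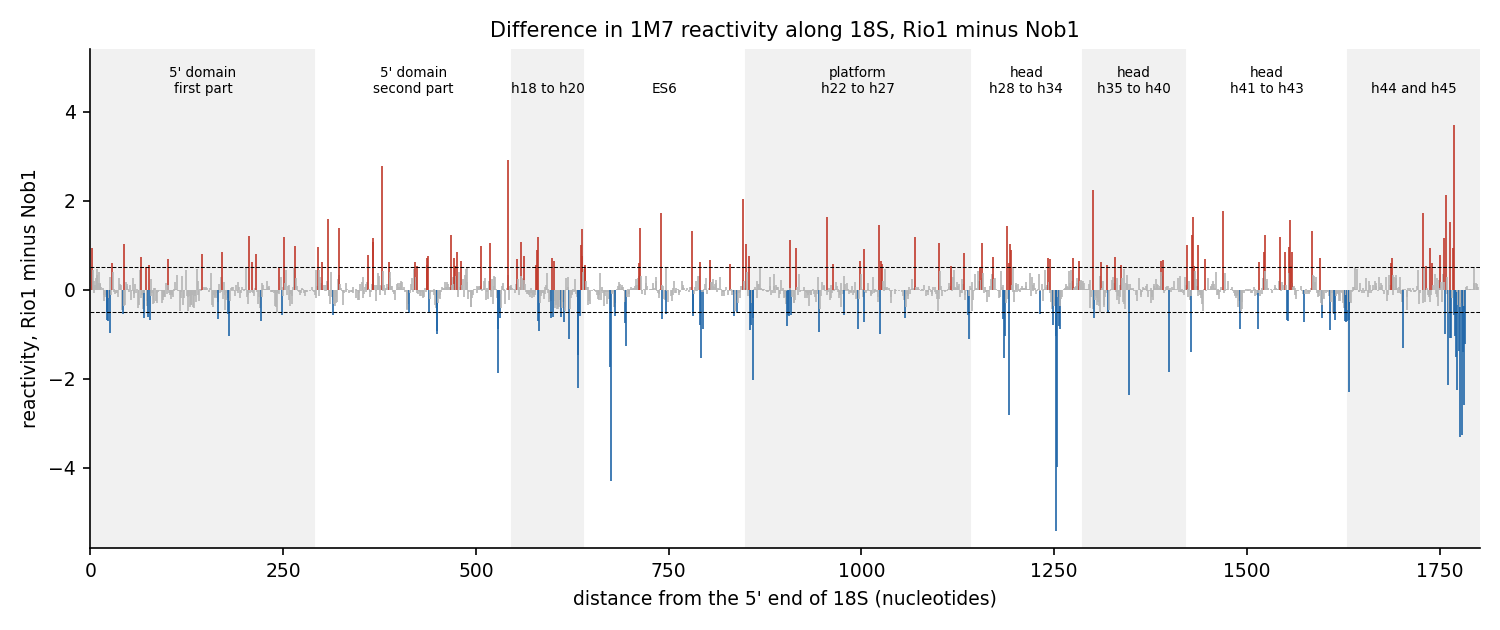
Reactivity of Rio1 minus that of Nob1 (vertical axis) at each nucleotide against its distance from the 5' end of 18S (horizontal axis, nucleotides), with the 9 segments shaded in turn (ES6 is expansion segment 6) and dashed lines at the call threshold of 0.5. The longest bars downward are at U1253 in the head (-5.42) and U675 in expansion segment 6 (-4.30), and the longest upward is at G1768 (3.70), beside a block of lower values in h45.

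The calls were spread over the molecule, with at least 1 in all but 4 of 60 bins of 30 nucleotides. By segment, from 8.33% (head, h35 to h40) to 23.7% (h18 to h20) of nucleotides were called, beside 12.7% of all. In h18 to h20 the calls split evenly, 11 higher and 11 lower of 93. The second part of the 5' domain had 22 higher and 9 lower of 256. The segment of h44 and h45 had 12 higher and 17 lower of 169, and of its 68 nucleotides compared by treated rate 12 (17.6%) were at least 2-fold lower in Rio1, beside 5.08% over the molecule. The head from h35 to h40 differed little, with 1 nucleotide 2-fold higher and 1 lower of 68.

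**Figure D3:**
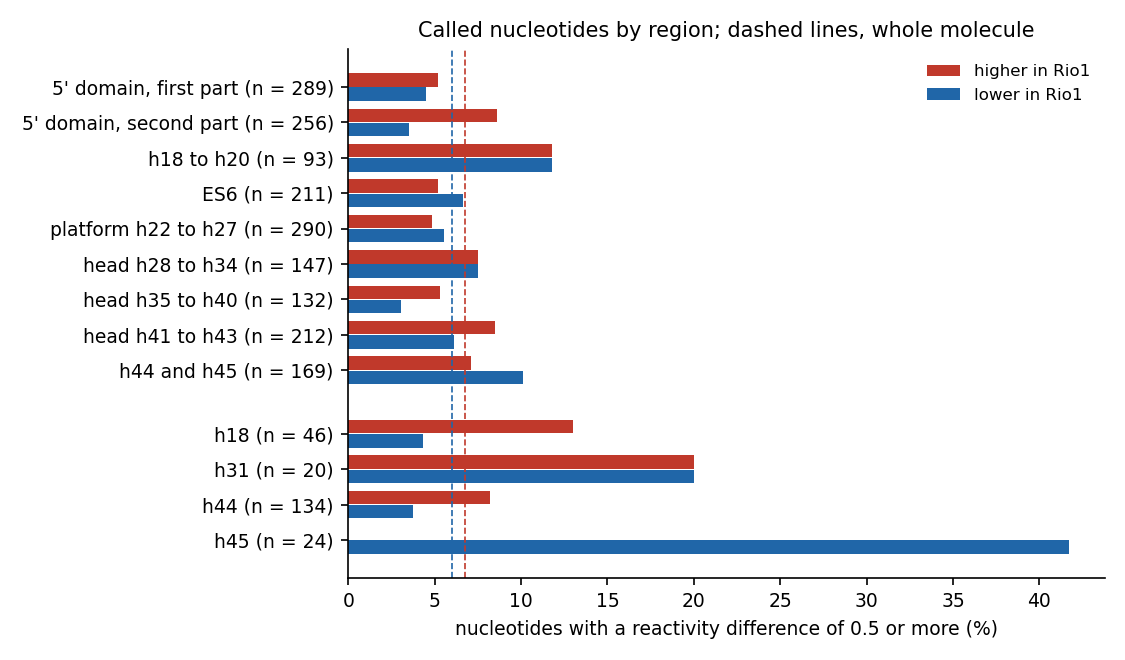
Share of nucleotides (horizontal axis, %) called higher (red) or lower (blue) in Rio1 in each of the 9 segments and, below them, in 4 helices that lie inside them, with dashed lines for the whole molecule (6.73% and 6.00%). In h45 10 of 24 nucleotides are lower and 0 higher.

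The hairpin h45 differed in 1 direction along its 5' strand and loop. Of its 24 nucleotides 10 (41.7%) were lower in Rio1 and 0 higher. They form the unbroken stretch U1769 to C1772, the pair U1775 and A1776, and the stretch U1779 to A1781 with C1783 after it. All but C1783 lie 5' of A1782, where most transcripts stopped in both columns (0.981 in Nob1 and 0.967 in Rio1). Their rates may therefore rest on few reads. A1776 had a treated rate of 0.165 in Nob1 and 0.0364 in Rio1, with 0.0590 in the untreated late control, hence a reactivity of 2.72 and -0.58. U1779 went from 0.193 to 0.0648 (control 0.128), and C1772 from 0.116 to 0.0275 (control 0.0635). At these 3 positions Nob1 lay above the control and Rio1 below it.

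The stop listed at A1781, the first of the dimethylated adenines, had a rate of 0.420 in Nob1 and 0.320 in Rio1 beside 0.215 in the control. It reads the nucleotide before A1781. An adduct on A1781 would be read at the stop listed at A1782, the second. The rate at A1782 was close to its maximum of 1 in all 3 columns (0.981, 0.967 and 0.950), which leaves little room for a difference. A transcript that stops at A1782 does not reach the nucleotides 5' of it, and how many reads remained there is not known. Mature 80S was listed at 0 at U1770, C1773, G1774 and G1780. Beyond C1783 (0.267 and 0.220) the rates from C1784 to G1792 were at most 0.00588 in both columns. The acetylated C1773 (0.0106 and 0.00818) and G1774 (0.0339 and 0.0207) were not called. In the last 8 nucleotides of 18S, next to the site that Nob1 cuts, 0 were called. The mean treated rate there was 0.00360 in Nob1 and 0.00856 in Rio1, beside 0.00118 in the control, and the largest difference was at A1794, with a rate of 0.0109 in Nob1 and 0.0300 in Rio1 (2.76-fold, 0.486 in reactivity).

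The other purifications place these levels. The mean treated rate of the 13 nucleotides from U1769 to A1781 was 0.124 in Nob1 and 0.0691 in Rio1. It was 0.152 in Rio2, the only other 1M7 column above Nob1, then 0.0910 in Ltv1, 0.0768 in Tsr1, 0.0697 in 80S-like, 0.0415 in Enp1 and 0.0199 in mature 80S. Rio1 and 80S-like were thus nearly equal there, and both lay near the late control (0.0657). The mid-early control had 0.0953, higher than the late one, so untreated RNA of different stages also differs over these nucleotides.

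**Figure D4:**
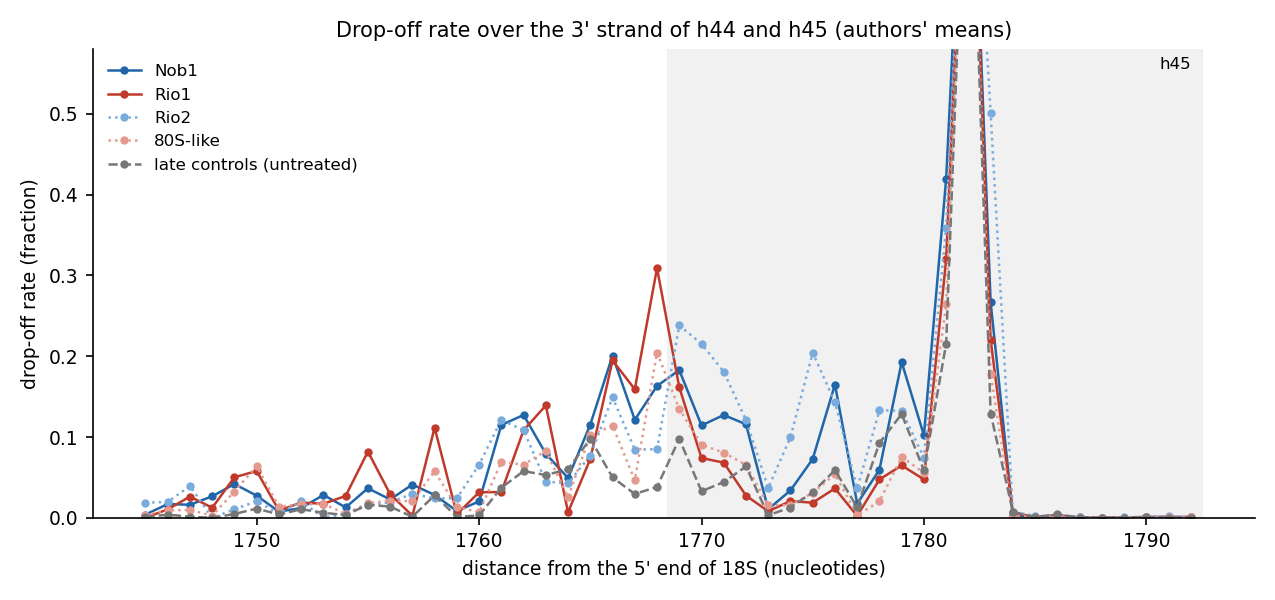
Drop-off rate (vertical axis, fraction, cut off above 0.58) against the distance from the 5' end of 18S (horizontal axis, nucleotides) in Nob1, Rio1, Rio2, 80S-like and the untreated late controls, with h45 shaded; each line is 1 averaged column. Nob1 lies above Rio1 from U1769 to C1783, Rio1 is the highest of the 5 at G1768 (0.309), and A1782 is off the scale in all 5 columns.

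On the 3' strand of h44, just before h45, higher and lower values alternated. This strand also lies 5' of the strong stop at A1782, so its rates may rest on few reads, and read depths are not known. G1768, the stop after the last nucleotide of h44, was the most raised nucleotide of the molecule, with a treated rate of 0.163 in Nob1 and 0.309 in Rio1 beside 0.0382 in the control. It stood at 0.205 in 80S-like, 0.101 in 80S and 0.0665 to 0.107 in Enp1, Ltv1, Rio2 and Tsr1, so Rio1 was the highest of the 8. U1758 had 0.0283 in Nob1 and 0.112 in Rio1, and A1763 had 0.0793 and 0.139, while U1761 had 0.115 and 0.0319 and C1764 had 0.0492 and 0.00686. The decoding-site adenines A1755 and A1756 lie in this strand, and adducts on them would be read at A1756 and G1757. A1756, the stop after A1755, was not called (0.0227 in Nob1 and 0.0294 in Rio1). G1757, the stop after A1756, was lower in Rio1, with 0.0412 in Nob1 and 0.00254 in Rio1. This was the lowest ratio among nucleotides with a rate of 0.02 or more in the higher column. The stop listed at A1755 itself, which reads the nucleotide before it, was called higher in Rio1. Its rate was 0.0366 in Nob1 and 0.0820 in Rio1 (reactivity 0.52 and 1.68), with 0.0889 to 0.0896 in Ltv1 and Enp1 and 0.0160 to 0.0351 in Rio2, 80S-like and Tsr1. The stop listed at G577, the decoding nucleotide of h18, did not differ by the threshold (0.0223 and 0.0202). U578, the stop after G577, was called higher in Rio1 (0.0389 and 0.0598), with both columns below the control (0.0872).

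Higher up h44, A1728 had 0.0155 in Nob1 and 0.0822 in Rio1, a 5.30-fold difference, but both lay below the late control (0.116). At A1633, in front of h44, the rate was 0.164 in Nob1 and 0.0744 in Rio1. Over the whole of h44, 11 of 134 nucleotides (8.21%) were higher and 5 (3.73%) lower, beside 6.73% and 6.00% of all. By treated rate, 7 of 51 (13.7%) were at least 2-fold higher and 6 (11.8%) lower, beside 6.59% and 5.08% over the molecule.

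In the head, the largest difference of the molecule was at U1253, with a treated rate of 0.348 in Nob1 and 0.137 in Rio1 beside 0.175 in the late control. Its neighbours U1254 (0.298 and 0.143) and C1252 (0.0622 and 0.0214) were lower too, as were U1249, A1256 and U1257. At U1253 the other 6 purifications had 0.0985 (Enp1) to 0.222 (Rio2), so it is Nob1 that stood out from the rest, and Rio1 lay within their range. U1254 behaved alike, with 0.0966 to 0.203 in the other 6.

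The loop of h31 carries U1191, a hypermodified pseudouridine, whose 3' stop C1192 is strong in late particles also without 1M7. C1192 had 0.792 in Nob1, 0.681 in Rio1 and 0.787 in the control, so Nob1 lay next to the control and Rio1 lay below it. A1184, U1185 and U1186 were lower in Rio1 (0.189 and 0.162, 0.148 and 0.0872, 0.123 and 0.0820), with both columns under the control at each (0.365, 0.206 and 0.135). Untreated RNA thus stopped reverse transcriptase at C1192 and at A1184 to U1186. The stop listed at U1191, which reads the nucleotide before it, was higher in Rio1 (0.187 and 0.210, control 0.317). An adduct on U1191 would be read at C1192. In h31, 4 of 20 nucleotides (20.0%) were higher and 4 (20.0%) lower, beside 6.73% and 6.00% of all. Elsewhere in the head, U1347 stood at 0.309 and 0.218, C1399 at 0.134 and 0.0617, and A1300 at 0.0712 and 0.159. A1300 had 0.174 in mature 80S and 0.0769 in 80S-like, near Rio1 and near Nob1 in turn. U1430 (0.0578 and 0.121), A1469 (0.0476 and 0.117) and A1556 (0.0858 and 0.147) were further head nucleotides among the 12 most raised in Rio1.

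In the body, expansion segment 6 held the second largest difference. U675 had a treated rate of 0.222 in Nob1 and 0.0545 in Rio1 (control 0.144), and C674 before it had 0.0848 and 0.0166 (control 0.0552). Rio2 (0.215) came close to Nob1 at U675, while Rio1 was the lowest of all 8 columns, below Ltv1 (0.0677). A378 in the 5' domain was the reverse, highest of the 8 in Rio1 (0.315), with 0.205 in Nob1, 0.218 in 80S-like and 0.0683 to 0.180 in Enp1, Ltv1, Rio2 and Tsr1. A542, the stop after the ribose-methylated A541, had 0.152 in Nob1, next to the control (0.154), 0.266 in Rio1 and 0.290 in 80S-like. Whether this stop comes from an adduct on A541 was not tested. C308 (0.0377 and 0.0996), A847 in expansion segment 6 (0.117 and 0.197) and A955 in the platform (0.0424 and 0.105, control 0.170) were also among the 12 most raised. U528 to C531 formed a stretch of 4 lower nucleotides, led by U528 (0.134 and 0.0611).

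**Figure D5:**
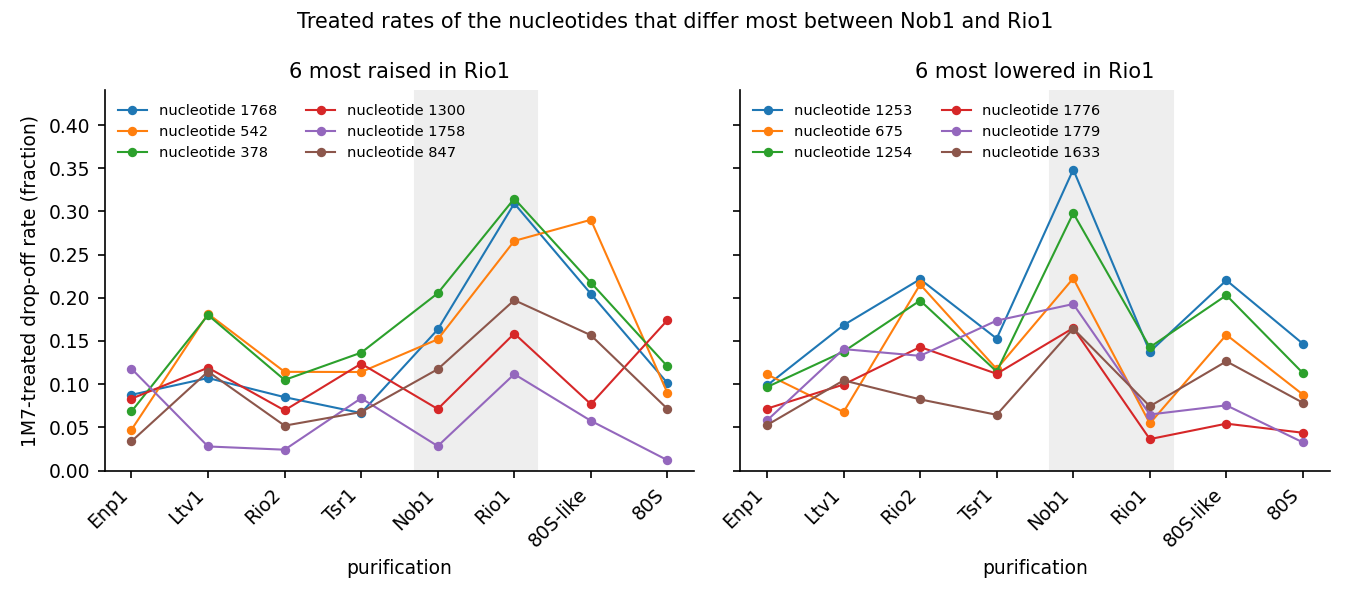
1M7-treated drop-off rate (vertical axis, fraction) of the 6 nucleotides most raised (left) and 6 most lowered (right) in Rio1 in each of the 8 purifications (horizontal axis), 1 averaged column each, with Nob1 and Rio1 shaded. At G1768 Rio1 is the highest of the 8, and at U1253, U1254 and U675 Nob1 is.

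Around the pseudouridine U632 the direction turned within 7 nucleotides. U632 to A635 were lower in Rio1, with U633 at 0.187 and 0.101, and A636 to U638 directly after them were higher, with U638 at 0.0796 and 0.133. In all, 10 runs of 3 or more neighbours of 1 direction were found, 7 lower with 24 nucleotides and 3 higher with 9. The other higher runs were A436 to A438 and U578 to A580, and U21 to G23 near the 5' end was a lower one. Opposite directions also met side by side, at 23 pairs of neighbours that the counts split into 10 with the higher call on the 3' side and 13 with it on the 5' side. C1070 in the platform, named after its value was seen, showed the largest ratio, 0.00123 in Nob1 and 0.0474 in Rio1, while the other 6 purifications had 0.00151 (Tsr1) to 0.00719 (Rio2) and NAI-treated Rio1 had 0.000950. NAI-treated Tsr1 had 0.0288 there, so a high rate at C1070 was not limited to Rio1 with 1M7.

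The direction of the difference went with the base at the listed stop. Adenine was the listed base at 88 of the 121 higher calls (72.7%) and uracil at 59 of the 108 lower ones (54.6%), whereas they make up 26.8% and 28.3% of all nucleotides and 40.6% and 35.5% of those with a rate of 0.02 or more. Of all adenines 18.2% were higher and 5.18% lower in Rio1, and of all uracils 3.54% higher and 11.6% lower. Adenines had more higher than lower calls in 9 of 9 segments, and uracils more lower than higher calls in 9 of 9. At the nucleotide 5' of the stop, which carries the adduct, guanine was the most frequent base of the higher calls (49, 40.5%) and adenine of the lower ones (43, 39.8%). Counted at that nucleotide, guanine made up 25.5% of all and 24.5% of those with a rate of 0.02 or more. For adenine these shares were 26.8% and 32.1%. Leaving out rates of 0.5 or more, the mean treated rate at adenines was 0.0443 in Nob1 and 0.0504 in Rio1, with 0.0404 to 0.0454 in the other 6 purifications. At uracils it was 0.0389 and 0.0333, with 0.0336 to 0.0382 in the others. Nob1 thus had the highest mean at uracils and Rio1 the highest at adenines and the lowest at uracils of the 8. With the Rio1 rates scaled to the Nob1 mean within each base, 113 nucleotides were higher, 49 of them adenines and 42 uracils. Lower calls then numbered 96, with 42 adenines and 36 uracils. This scaling lowers the Rio1 rates at adenines and raises those at uracils, so such a shift in the bases called follows from it. In h45, 9 lower and 0 higher calls remained.

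Modified nucleotides were counted by kind at their own listed position, which reads the nucleotide 5' of it, and then at the stop 3' of them, where an adduct on them would be read. Of the 18 ribose-methylated nucleotides 5 were called higher in Rio1 and 0 lower (median difference 0.21), beside 6.73% and 6.00% of all nucleotides. Of these 5, A100, A436 and U578 lay below the untreated control in both columns, and A28 and G562 reached a reactivity above it in Rio1 (1.90 and 0.673). At the stops 3' of the 18 the count was again 5 and 0 (median 0.17), from A421, A437, A542, A579 and G1429. Of these, A579 lay below the control in both columns, and C1640 lay just under the threshold (0.497). 1M7 acylates the ribose, which is the part methylated here, and whether these stops come from adducts on the methylated nucleotides was not tested. Of the 13 pseudouridines other than U1191, 0 were higher and 1, U632, was lower (median -0.059). At the stops 3' of these pseudouridines 0 were higher and 1, U633, was lower. Of the 6 base-modified nucleotides U1191 was higher and A1781 lower. At the stops 3' of these 6, 0 were higher, and C1192 and C1783 were lower. C1280 (0.00728 and 0.0132), G1575 (0.0124 and 0.00828) and the stops after them showed no call. The listed base of these groups moves with their direction, since the 5 higher ribose-methylated nucleotides include 3 adenines, and the pseudouridines are all listed as uracil. The part of the base in these counts was not tested.

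Other columns of the series were set beside both profiles by treated rate. At the 108 lower calls 80S-like was nearer to Rio1 at 57 (52.8%) and mature 80S at 80 (74.1%). At the 121 higher calls 80S-like was nearer to Rio1 at 38 (31.4%) and mature 80S at 56 (46.3%). Over all 1799 nucleotides these shares were 46.1% and 49.4%. The untreated late control gave 77.8% at the lower and 34.7% at the higher calls, that is, it also tended to lie near the column with less signal. Of the 6 late pairs, treated rates differed 2-fold at 108 of 926 nucleotides for Rio1 against Nob1, 70 of 867 for 80S-like against Nob1, and 122 of 876 for 80S-like against Rio1. For mature 80S the counts were 313 of 990 against Nob1, 310 of 977 against Rio1 and 298 of 940 against 80S-like. These pairs share columns and are given side by side only. NAI, another acylating reagent, was used on 1 Rio1 sample and on no Nob1 sample of the table. Its rates at nucleotides lower in Rio1 than in Nob1 with 1M7 were 0.0413 at U1253, 0.0170 at U675 and 0.0474 at A1776, and at higher ones 0.0335 at G1768, 0.119 at A378 and 0.397 at A542. It has no Nob1 counterpart, so it gives levels only.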

How the data were processed

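The authors deposited 1 table of drop-off rates, each a fraction, over 1800 nucleotides of 18S, with 1 column for each of 17 groups, already averaged over the samples of a group, per the file headers. Per the submitters' processing notes Novoalign 2.07 was among the tools. The sources used here state neither the reference, the depth nor how the rate and its average were computed, so no SD, interval or test could be had. RDN18-1 and RDN18-2 are 1800 nucleotides long in the RefSeq table used, and since the deposited table names no build no chromosomal coordinates are given.

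Nucleotide 1, listed at 1, was left out. Reactivity, calls and the direct comparison of treated rates were computed as the text states, with Python 3.11.15, numpy 2.4.6 and pandas 2.3.3. Call functions were tested on simulated data. The members, region boundaries, lists of modified nucleotides and rules were chosen with earlier results of these data known. Region names stand for ranges of nucleotides on textbook boundaries, and h34 extends into the range named h41 to h43. Named in the text were the 12 largest rises and 12 largest falls whose treated rates differed 1.5-fold or more, the 3 highest nucleotides of each column, the 5 highest shared ones among those not called, runs of 3 or more calls, base-modified and decoding-site nucleotides with the stops 3' of them, and the last 8 nucleotides. The other nucleotides of h45, those around U1253, A1763, C1764, C1070 and the ribose-methylated sites were named after their values were seen.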

Additional observations from a re-analysis of the deposited data

How the results depend on the processing

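The choice of divisor or control hardly moved the counts of called nucleotides. With 1 divisor for both columns 120 of the 121 higher and 107 of the 108 lower calls were shared, and with the mid-early controls 109 and 106. The divisors are nearly equal and a control shared by both columns nearly cancels in the difference, so these settings could hardly move the calls. They do not test whether the late control suits these particles. Without subtraction the divisors rise to 0.0934 and 0.0954, and 21 were higher and 26 lower. With values below the control set to 0, 75 were higher. A threshold of 0.3 gave 201 higher and 213 lower, and one of 1 gave 42 and 34. Among nucleotides whose higher column reached a reactivity of 0.3, an alternative chosen after seeing the data, 80 were higher. For the treated rate, a minimum of 0.05 left 27 nucleotides 2-fold higher and 19 lower, a minimum of 0.01 gave 76 lower, 1.5-fold gave 158 and 161, 3-fold gave 8 and 11, and a pseudocount of 0.01 gave 22 and 20. The lower calls in h45 numbered 7 to 13 under the alternatives run, with 0 higher. Of 144 recomputed differences at the 24 largest rises and falls 141 kept their direction and stayed past 0.5, the exceptions being A955, A1469 and A1728 with values below the control set to 0. Replicates could not be left out in turn. No paired analysis was possible because each group has 1 averaged column.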
